A study of Homo sapiens with 4 samples.

Results

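The long intergenic noncoding RNAs listed under names of the form LINC plus digits were examined in HGC-27 cells. The members were chosen by their measured counts: a name was kept when its counts summed over the 4 libraries reached at least 100, which left 102 of the 839 LINC names with any count and of the 31907 gene names listed in all. Their presence above that limit is not a result. HGC-27 is an established line of human gastric cancer cells, and the libraries came from 2 samples treated with PBS, the vehicle, and 2 treated with recombinant human IL-17B protein (rIL-17B) at 200 ng/ml, all collected after 48 h. RNA was sequenced by Smart-seq2, which copies RNA from an oligo-dT primer and amplifies the cDNA by PCR, so RNAs with a poly(A) tail are favoured. The comparison asks how the transcriptome of these cells differs after exposure to IL-17B, a cytokine that binds the receptor IL-17RB. The labels name no separate cultures, so p-values measure only the spread between these samples, which may be technical. Their library protocol also speaks of monocytes, whereas the sample descriptions give HGC-27.

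LINC is a placeholder symbol given to long noncoding RNA genes that lie between coding genes and have no better known function. Long noncoding RNAs are transcribed by RNA polymerase II, usually spliced and polyadenylated, and typically less abundant and more restricted to certain cell types than mRNAs. Some act in the nucleus on nearby genes, some act in the cytoplasm or host microRNAs, and a few were later found to encode small proteins.

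The 4 libraries held 15904594 and 12888029 counts with PBS against 14615341 and 17555879 counts with rIL-17B, and a floor of 3 counts lay between 0.171 and 0.233 CPM (the count divided by the library total and multiplied by 1e+06). Floors and intervals cover counting error only, because PCR copies are not independent molecules. rIL-17B replicate 1 stood apart from the other 3 libraries, so the main results below are also given for replicate 2 alone or from a fit without replicate 1. Its summed level of 4 mesenchymal markers was 514 CPM against 28270 to 34099 CPM elsewhere, with FN1, fibronectin, at 149 CPM against 27450 to 33131 CPM. The 5 fibroblast markers summed to 272 CPM against 12031 to 14132 CPM, and the 3 endothelial markers to 1.03 CPM against 13.2 to 17.5 CPM. The 5 epithelial markers summed to 1818 CPM against 777 to 1001 CPM, most of it KRT8 and KRT18 keratin RNA. This list did not move as a whole, since KRT19 had 1 count in rIL-17B replicate 1 against 43 to 58 elsewhere and CDH1, which encodes E-cadherin, had 7 to 11 counts in every library. The 5 monocyte markers summed to 8.42 CPM there and 9.37 to 10.2 CPM elsewhere, but CSF1R alone made up 8.14 CPM there, above its 3.90 to 6.15 CPM elsewhere, while CD14 was at 0.274 CPM and LYZ, ITGAM and PTPRC were at 0. No marker of the other lists was at 0 in any library. In such bulk samples, fewer cells of a type and less RNA per cell cannot be told apart. Whether rIL-17B replicate 1 came from the same cells and culture as the other libraries is not given by the labels and was not tested, so in that library a difference of sample and a difference of treatment cannot be told apart.

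The members were a small and mostly low part of the transcriptome. They summed to 12471 and 10449 counts with PBS and to 13090 and 14291 counts with rIL-17B, or 0.0784%, 0.0811%, 0.0896% and 0.0814% of each library. Their median was 4.43 and 4.58 CPM in the PBS libraries and 4.31 and 4.41 CPM in the rIL-17B libraries. In the order PBS 1, PBS 2, rIL-17B 1 and rIL-17B 2, 607, 583, 420 and 601 of the 839 LINC names had a count. The lowest number was thus in rIL-17B replicate 1, although its total was above that of PBS replicate 2. At the limit of the rule, LINC01484 had 100 counts in all and LINC00607 had 105, while LINC02009 and LINC02043 with 96 each fell outside.

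All 102 members were found in RefSeq, where 100 are long noncoding RNA genes and 2, LINC00116 (now MTLN) and LINC02581 (now RNF227), are protein-coding genes. RefSeq has renamed 19 of them. With GENCODE 29 positions on GRCh38 for 98 members and RefSeq positions for the rest, they lay on 22 chromosomes, with 15 on chromosome 2 and 9 on chromosome 1. The exons of the 98 covered a median of 3.079 kb. The nearest protein-coding gene with a count in these data lay a median of 12.007 kb away. Coding genes without a count were passed over, here and wherever a nearest coding gene is named below. Despite the word intergenic, 55 members overlapped another counted gene. How strand was used in counting is not given in the sources used here, so the counts of those 55 are uncertain.

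LINC00473, known as a target of cAMP signalling through the factor CREB, had the most counts. It lies at chr6:165924048-165988039 and overlaps the phosphodiesterase gene PDE10A. Its level was 98.97 and 95.05 CPM with PBS against 206 and 119 CPM with rIL-17B, so the rIL-17B libraries were both above the PBS libraries, and rIL-17B replicate 1 far more so than replicate 2. LINC00963, at chr9:129483451-129513686, came next with 72.1 and 70.8 CPM against 97.4 and 75.1 CPM. LINC00473 and LINC00963 together took 21.8% and 20.5% of the members' counts with PBS, and 33.9% and 23.9% with rIL-17B.

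**Figure D1:**
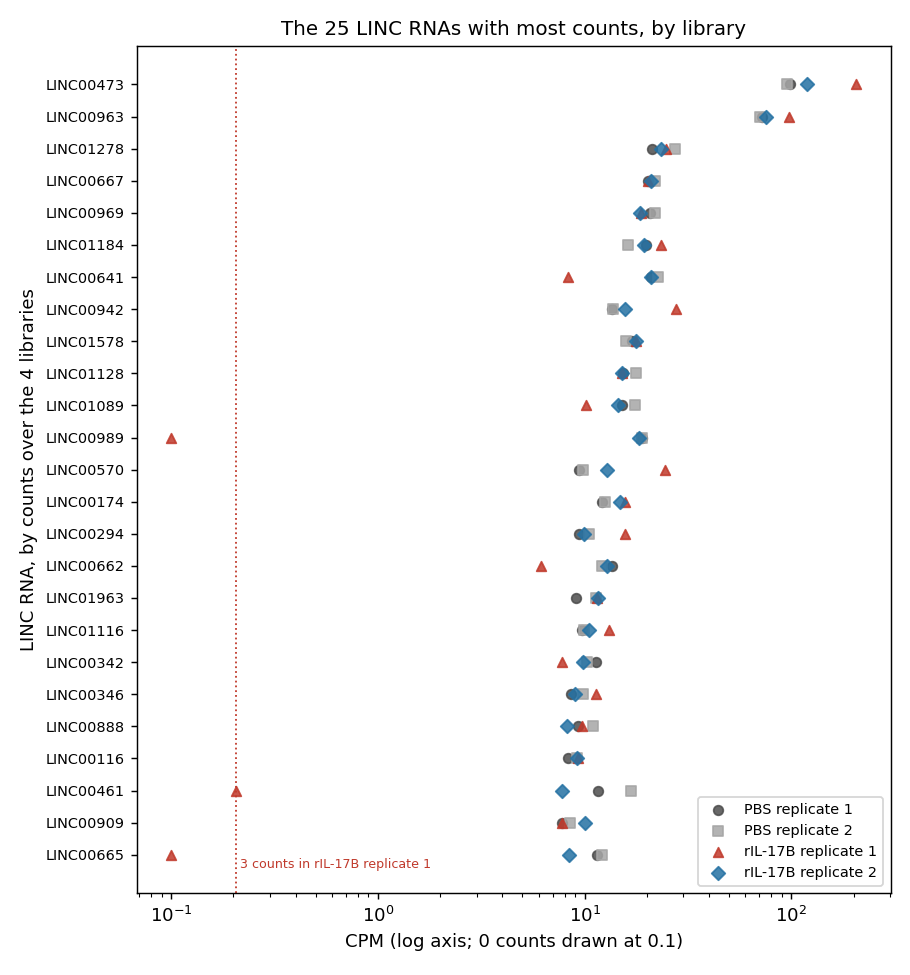
Level of the 25 LINC RNAs with the most counts, as CPM on a log axis, with 1 symbol for each of the 4 libraries and RNAs at 0 counts drawn at 0.1. LINC00473 and LINC00963 sit above the rest in every library, and LINC00989 is at 0 in rIL-17B replicate 1 beside 18.3 to 18.9 CPM in the other libraries.

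The next members by counts stayed close to their PBS levels in both rIL-17B libraries, with the exception of LINC00641 and LINC00942. LINC01278 had 21.1 and 27.3 CPM with PBS against 24.8 and 23.4 CPM with rIL-17B. LINC00667 had 20.2 and 21.96 against 20.3 and 20.8 CPM. LINC00969, now named MIR570HG, had 20.6 and 21.9 against 18.8 and 18.5 CPM. The rIL-17B values of LINC00969 were thus both under its PBS values, whereas those of LINC01278 lay between them. LINC01578, now CHASERR, starts next to the chromatin remodeller gene CHD2, whose expression it is known to restrain, and had 16.9 and 15.8 against 17.7 and 17.8 CPM. LINC01184 had 19.9 and 16.1 against 23.4 and 19.3 CPM, and LINC01128 had 15.4 and 17.8 against 15.2 and 15.2 CPM. For both, the groups overlapped or differed by less than the gap between the PBS libraries. LINC00641 had 20.9 and 22.7 CPM with PBS, 8.35 CPM in rIL-17B replicate 1 and 20.9 CPM in replicate 2. LINC00942 had 13.5 and 13.7 against 27.6 and 15.6 CPM. In both RNAs rIL-17B replicate 1 alone was far from PBS.

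Per length the order of levels was different. Over the 98 members with an exon length, the PBS mean was 0.28 to 10.8 CPM per kb of exon, with a median of 1.58. LINC00106, a short RNA of 0.592 kb on chromosome X, had the highest level, 9.35 and 12.3 CPM per kb with PBS and 8.21 and 10.5 with rIL-17B. It lies in the pseudoautosomal region, so reads of the X and Y copies cannot be told apart. LINC00989 followed with 8.45 and 8.49 CPM per kb with PBS, 0 in rIL-17B replicate 1 and 8.20 in replicate 2. LINC00963, with 13.171 kb of exon, had 5.48 and 5.37 CPM per kb with PBS. LINC00910 had the lowest PBS mean, 0.28 CPM per kb. LINC00473 has no exon length here and is not ranked.

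No LINC RNA passed the test between rIL-17B and PBS. With edgeR's quasi-likelihood test and Benjamini-Hochberg adjustment over 16361 genes, 0 of the 102 members were below an adjusted p of 0.05, and percent called over all genes was 0%. The smallest adjusted p of a member was 0.661. At an unadjusted p under 0.05 there was 1 member, 0.98% of them, against 1.38% of all genes, and DESeq2 also called 0 members with 1 at an unadjusted p under 0.05. By the sign of the fitted log2 fold change 47 members were higher with rIL-17B and 55 were lower. Their median log2 fold change was -0.08, against -0.03 over all genes tested. With 2 libraries a group, the two-sided p of an exact permutation test is never under 0.333, so none is given for single RNAs.

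The 2 rIL-17B libraries lay above both PBS libraries for 32 members (31.4%, against 34.9% of the 13801 names with at least 100 counts) and below both for 26 (25.5%, against 26.8%), together 58 members (56.9%, against 61.7%). Which side held more members turned with the scaling: with TMM-scaled library sizes 26 were higher (against 31.6% of names) and 30 lower (against 29.9%). These shares were close to or under those of all names.

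Among the members with the smallest p, LINC01748 was the RNA under 0.05. It had 2.58 and 3.65 CPM with PBS against 1.23 and 1.59 CPM with rIL-17B, so the groups did not overlap. Its log2 fold change was -1.19 (SE 0.39, n = 2 and 2, edgeR p 0.0432, adjusted p 0.661). LINC01003 had 4.401 and 4.81 against 2.60 and 2.91 CPM, with a log2 fold change of -0.81 (SE 0.29). LINC01521 had 3.65 and 3.80 against 2.12 and 2.39 CPM, with -0.79 (SE 0.30). LINC01914 had 3.02 and 2.79 against 1.51 and 1.82 CPM, with -0.86 (SE 0.33), and LINC02210 had 6.92 and 5.90 against 4.11 and 4.90 CPM, with -0.57 (SE 0.29). In these RNAs both rIL-17B libraries were under both PBS libraries, and replicate 1 was the lower of the pair. In the fit without rIL-17B replicate 1 the log2 fold changes of these 5, in the order named, were -0.95, -0.66, -0.64, -0.68 and -0.40, with edgeR adjusted p between 0.234 and 0.519.

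On the other side, LINC00570 had 9.37 and 9.85 CPM with PBS against 24.6 and 12.9 CPM with rIL-17B, giving a log2 fold change of 0.87 (SE 0.34). LINC00355 had 1.95 and 1.86 against 5.27 and 2.79 CPM, with 0.99 (SE 0.41). LINC00473 had a log2 fold change of 0.66 (SE 0.26), and LINC02081 had 2.77 and 2.64 against 5.82 and 3.93 CPM, with 0.77 (SE 0.31). In these RNAs the value of rIL-17B replicate 1 was the higher by a wide margin. LINC00476 was the exception, with 3.90 and 2.79 against 6.43 and 5.75 CPM and a log2 fold change of 0.79 (SE 0.31), and its rIL-17B values were close together. Each of the 10 RNAs with the smallest p in either direction had an edgeR adjusted p of 0.661. Without rIL-17B replicate 1 the log2 fold change of LINC00570 was 0.42, that of LINC00355 was 0.54, that of LINC02081 was 0.53 and that of LINC00476 was 0.76, with edgeR adjusted p between 0.139 and 0.613. That of LINC00473 was 0.29.

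By median size, rIL-17B replicate 1 lay farther from the PBS mean than rIL-17B replicate 2 did. On the scale of log2(CPM + 0.5), the median size of a member's difference from the PBS mean was 0.63 for rIL-17B replicate 1. It was 0.21 for replicate 2. The PBS libraries differed from each other by a median of 0.19. That value sets single libraries against each other and not against a mean, so it is not directly comparable with 0.63 and 0.21. Over all 13801 names these medians were 0.47, 0.13 and 0.11. The members had few counts, with a median sum of 268.5 over the libraries. Names at like counts were not compared for these medians, so a larger spread of the members is not shown. In rIL-17B replicate 1 the members' differences ran from -5.28 to 1.31, and in replicate 2 from -0.998 to 0.72.

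**Figure D2:**
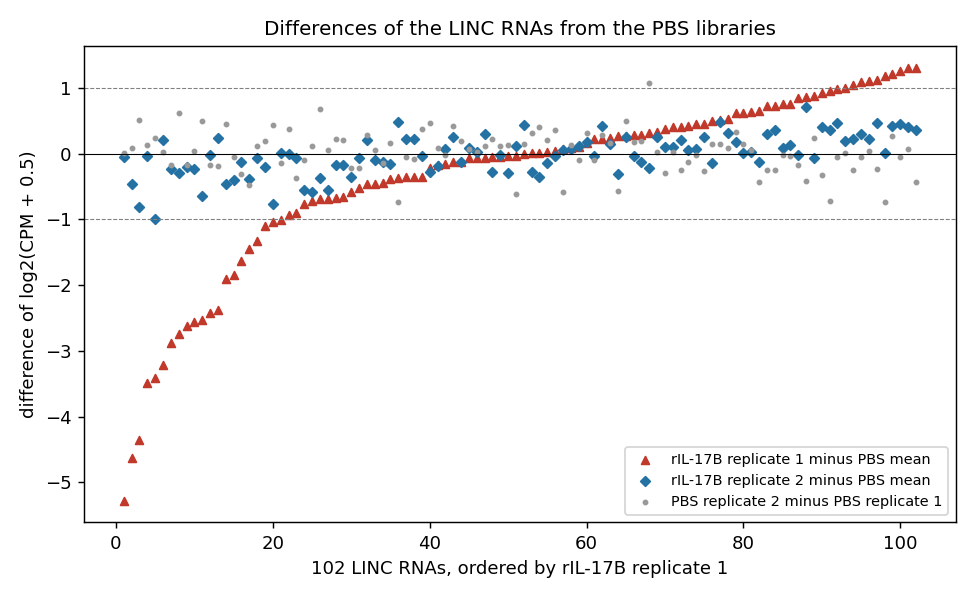
Difference of log2(CPM + 0.5) for each of the 102 LINC RNAs, ordered by rIL-17B replicate 1, with triangles for rIL-17B replicate 1 minus the PBS mean, diamonds for rIL-17B replicate 2 minus the PBS mean and grey points for PBS replicate 2 minus PBS replicate 1. The triangles run from -5.28 to 1.31 while the diamonds run from -0.998 to 0.72.

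In rIL-17B replicate 1, 19 members were at least 2-fold under both PBS libraries (18.6%, against 15.6% of all names) and 7 were at least 2-fold over both (6.86%, against 1.64%). Among the 7, LINC00648 and LINC01484 met the limit of 100 counts only through their rIL-17B counts. In rIL-17B replicate 2 there were 0 on either side, against 0.0507% and 0.00725% of all names, and 1 member differed 2-fold between the PBS libraries (0.98%, against 0.21%). Among names with 100 to under 1000 counts, which held 93 members, 18 members were 2-fold under (19.4%, against 26.6%) and 6 were 2-fold over (6.45%, against 1.69%). With TMM-scaled library sizes 20 members were 2-fold under (against 16.7%) and 2 were 2-fold over (against 0.478%). A fit of rIL-17B replicate 1 alone against PBS called 53 members (52%, against 55.1% of 17223 genes), 19 higher (18.6%, against 23.2%) and 34 lower (33.3%, against 31.9%). A fit of replicate 2 alone called 3 (2.94%, against 2.95% of 17103 genes), 1 higher (0.98%, against 0.643%) and 2 lower (1.96%, against 2.3%). In these fits the lone library is assumed to vary like the PBS libraries, so they compare libraries and not conditions. The 3 called with replicate 2 were LINC00461, LINC01268 and LINC00473.

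The largest differences were LINC RNAs that were nearly absent from rIL-17B replicate 1. There were 12 members at or under 3 counts in that library, 8 of them at 0, and none in the other 3 libraries. This was 11.8% of the members against 5.86% of all names with at least 100 counts. Among names with 100 to under 1000 counts, a range that held 93 members and all of the 12, the shares were 12.9% and 13.4%, so at like counts the members did not stand out.

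LINC00989, at chr4:79492416-79576460, had 300 and 244 counts with PBS, 0 in rIL-17B replicate 1 and 321 in replicate 2. In rIL-17B replicate 1 it was at least 92.1-fold lower than the PBS mean, taking the floor of 3 counts for that library, whereas replicate 2 was at 96.8% of the PBS mean. LINC00665, beside the zinc-finger gene ZFP14 on chromosome 19, had 183 and 157 counts with PBS, 0 in rIL-17B replicate 1 and 148 in replicate 2. That is at least 57.7-fold lower in replicate 1, with replicate 2 at 71.2% of the PBS mean. LINC00461, the host of microRNA miR-9-2, had 185 and 217 counts with PBS, 3 in rIL-17B replicate 1 and 137 in replicate 2. The ratio of the PBS mean to rIL-17B replicate 1 was 69.3 (95% counting interval 23.7 to 336).

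LINC02381, on chromosome 12, had 112 and 100 counts with PBS, 3 in rIL-17B replicate 1 and 127 in replicate 2, a ratio of 36.1 (12.3 to 175). LINC01268, now named MROCKI, had 70 and 68 counts with PBS, 0 in rIL-17B replicate 1 and 38 in replicate 2. It was at least 23.6-fold lower in replicate 1 and at 44.7% of the PBS mean in replicate 2, so it was also the lowest of the 12 in the library that did not stand apart. The remaining 7 were LINC00960, LINC00565, LINC02527, LINC01605, LINC01597, LINC01614 and LINC00607. Of these, LINC00960 and LINC01597 had 1 count in rIL-17B replicate 1 and the others had 0, and in replicate 2 they were at 56.2% to 122% of the PBS mean. In the fit over both rIL-17B libraries the 12 had wide errors, as for LINC00989, with a log2 fold change of -1.05 and an SE of 2.15 (edgeR adjusted p 0.799). Without rIL-17B replicate 1 its log2 fold change was -0.05 (edgeR adjusted p 0.941). The mesenchymal, fibroblast and endothelial marker sums were low in the same library, and their part in these values was not tested.

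The nearest protein-coding genes of these RNAs were often lower in the same library, but not near absence. Of the 12, 11 had a nearest coding gene with at least 100 counts, and their median difference from PBS in rIL-17B replicate 1 was -1.13 on the log2(CPM + 0.5) scale. At least 2-fold lower were 7 of these 11 neighbours, counting MREG for both LINC00607 and LINC01614, and 0 were at or under 3 counts. Among the 53 members that were under 2-fold from PBS and had such a neighbour, 1 neighbour was at least 2-fold lower and 2 were at least 2-fold higher. Lower neighbours were also found beside other members. Beside members at least 2-fold over the PBS mean, 2 of 5 were 2-fold lower, and beside all members at least 2-fold under it, 8 of 18 were, with a median of only -0.11. Over all 13801 names 16.4% were at least 2-fold under the PBS mean in that library. In rIL-17B replicate 2, 0 of these neighbours were 2-fold lower, and those of the near-absent RNAs had a median of -0.14. ANTXR2, an anthrax toxin receptor gene 324689 bases from LINC00989, had a difference of -4.77. MARCKS, which encodes a protein kinase C substrate and lies 4542 bases from LINC01268, had -1.08, at 114 CPM against a PBS mean of 242 CPM. By contrast MEF2C, the nearest coding gene to LINC00461, had 0.45, SMUG1, which LINC02381 overlaps, had 0.52, and FYN near LINC02527 had 0.47. Across 76 members and their neighbours Pearson's r was 0.43 for rIL-17B replicate 1 and 0.17 for replicate 2, given as a description, since all points come from the same libraries and some members share a neighbour.

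LINC00607 and LINC01614 lie on the same chromosome as FN1, the fibronectin gene at chr2:215360440-215436172. LINC01614 (chr2:215718043-215719424) lies within the span of LINC00607 (chr2:215611563-215843722), and they lie 281.9 kb and 175.4 kb from FN1. LINC00607 had 38 and 32 counts with PBS, 0 in rIL-17B replicate 1 and 35 in replicate 2. LINC01614 had 36 and 25 against 0 and 45. FN1 itself had 526938 and 418314 counts with PBS, 2172 in rIL-17B replicate 1 and 481910 in replicate 2. All 3 genes were therefore lowest in rIL-17B replicate 1, where 16.4% of all 13801 names were at least 2-fold under the PBS mean. MREG, the nearest coding gene to both RNAs, had 14.5 and 19.6 CPM with PBS against 7.46 and 13.6 CPM with rIL-17B. A link between these genes was not tested.

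The promoter windows of the members were read from RefSeq (GRCh38.p14, 250 bases before to 50 after the start). A window was found for 65 members. Windows were called CpG-rich when the observed CpG count was over 0.6 of that predicted from C and G content and GC was over 50%. That held for 35 of the 65 (53.8%), against 46.8% of 35116 promoters. None of the 7 near-absent RNAs with a window was CpG-rich, with a median observed-over-expected CpG of 0.23, whereas 29 of the 47 members under 2-fold from PBS were. Over all names with at least 100 counts and a window, 3.78% of 6008 with a CpG-rich window were at or under 3 counts in rIL-17B replicate 1. Without a CpG-rich window it was 14.1% of 1112. The classes were not matched for counts, and near absence was more frequent at low counts (13.4% of names with 100 to under 1000 counts, against 5.86% of all). A link to CpG content was not tested. Among the members, 0 of 35 with a CpG-rich window and 7 of 30 without were at or under 3 counts there. In replicate 2 there were 0 such members in either class. The members' median difference from PBS in replicate 1 did not follow those shares, at 0.02 for the 35 with a CpG-rich window and 0.30 for the 30 without, and in replicate 2 the medians were 0.0043 and 0.020. The letters TATAAA, searched on both strands, were in 3 of the 7 windows, in 11 of the 65 and in 11.5% of all promoters.

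The windows of LINC00607 and LINC02381, near absent from rIL-17B replicate 1, and of LINC00963, abundant in every library, are shown for their CpG content, with each CG in capitals. They are LINC00607 at chr2:215843487-215843786 on the minus strand with 3 CpG, LINC02381 at chr12:54125821-54126120 on the plus strand with 13 CpG, and LINC00963 at chr9:129488410-129488709 on the plus strand with 43 CpG.
LINC00607: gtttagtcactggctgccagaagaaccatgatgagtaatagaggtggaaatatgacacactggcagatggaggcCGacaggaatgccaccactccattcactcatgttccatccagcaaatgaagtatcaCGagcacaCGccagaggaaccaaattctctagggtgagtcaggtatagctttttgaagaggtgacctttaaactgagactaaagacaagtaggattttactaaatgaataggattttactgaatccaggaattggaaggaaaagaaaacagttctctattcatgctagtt
LINC02381: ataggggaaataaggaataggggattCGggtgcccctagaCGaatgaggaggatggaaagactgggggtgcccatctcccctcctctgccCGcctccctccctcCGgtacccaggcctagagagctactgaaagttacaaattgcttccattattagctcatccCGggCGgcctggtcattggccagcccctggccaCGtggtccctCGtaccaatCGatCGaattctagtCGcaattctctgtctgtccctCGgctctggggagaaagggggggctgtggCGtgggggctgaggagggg
LINC00963: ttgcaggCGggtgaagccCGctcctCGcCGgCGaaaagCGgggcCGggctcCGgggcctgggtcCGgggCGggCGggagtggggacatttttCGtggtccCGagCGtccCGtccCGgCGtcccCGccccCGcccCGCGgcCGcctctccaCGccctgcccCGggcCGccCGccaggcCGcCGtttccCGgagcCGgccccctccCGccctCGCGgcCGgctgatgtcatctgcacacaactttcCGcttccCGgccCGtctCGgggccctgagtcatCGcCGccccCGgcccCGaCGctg
The windows of LINC00607 and LINC02381 did not reach the limit for CpG-rich, with observed-over-expected CpG of 0.23 and 0.49, while that of LINC00963 was 0.96.

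**Figure D3:**
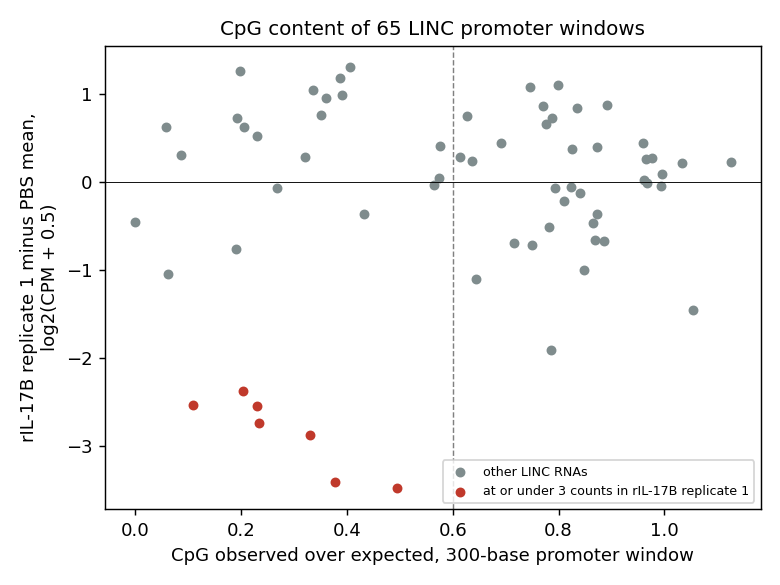
Observed-over-expected CpG in the 300-base promoter window of 65 LINC RNAs (x axis) against the difference between rIL-17B replicate 1 and the PBS mean on the log2(CPM + 0.5) scale (y axis). The 7 red points, RNAs at or under 3 counts in that library, have a median of 0.23 on the x axis.

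The 7 LINC RNAs at least 2-fold over both PBS libraries in rIL-17B replicate 1 were LINC00473, LINC00570, LINC01123, LINC01411, LINC00355, LINC00648 and LINC01484. LINC01123 had 4.72 and 4.89 CPM with PBS, 10.9 CPM in rIL-17B replicate 1 and 5.70 CPM in replicate 2. LINC01411 had 3.84 and 2.72 CPM with PBS, 8.76 CPM in rIL-17B replicate 1 and 4.27 CPM in replicate 2. LINC00648 had 1.45 and 1.16 against 3.42 and 1.99 CPM. In all 7, rIL-17B replicate 2 was also above both PBS libraries, by 0.23 to 0.47 of the log2(CPM + 0.5) scale from the PBS mean. Most names did so too: of all 226 names 2-fold over in rIL-17B replicate 1, 97.3% were above both PBS libraries in replicate 2, and of all 13801 names 39.3% were. The PBS libraries are shared by both comparisons. LINC01484 had 0.88 and 1.16 against 3.01 and 1.54 CPM, and it was also the member with the fewest counts. It met the limit of 100 counts only through its rIL-17B libraries, with 14 and 15 counts against 44 and 27. The same holds for LINC00648, with 23 and 15 against 50 and 35. Their place among the 7 is thus partly set by the limit. LINC01270, named for its difference of 1.19 in rIL-17B replicate 1, had 3.71 and 2.02 CPM with PBS against 6.91 and 2.79 CPM with rIL-17B, so its groups overlapped. LINC00473 was the most abundant of the group, and in the fit of rIL-17B replicate 2 alone it had a log2 fold change of 0.29 (edgeR adjusted p 0.0424), against 0.95 in the fit of replicate 1 alone.

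The promoter window of LINC00473 is shown for its matches to TGACG, the core of the cAMP response element that CREB binds. It lies at chr6:165987990-165988289 on the minus strand, with TGACG and its reverse complement CGTCA in capitals.
LINC00473: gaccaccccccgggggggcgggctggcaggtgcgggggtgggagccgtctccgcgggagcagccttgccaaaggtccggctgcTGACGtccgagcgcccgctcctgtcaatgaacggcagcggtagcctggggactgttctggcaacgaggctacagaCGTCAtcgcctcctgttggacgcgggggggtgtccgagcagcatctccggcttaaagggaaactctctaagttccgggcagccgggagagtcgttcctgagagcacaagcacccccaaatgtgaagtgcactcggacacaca
There were 2 matches on the 2 strands together, and at least 2 were found in 6.02% and at least 1 in 24.6% of the 35116 promoters. The complete palindrome TGACGTCA was not in this window. A match describes letters only, and CREB was not measured.

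In rIL-17B replicate 2 alone, the lowest members were LINC01268, LINC00461 and LINC01748. LINC01268 had 4.401 and 5.28 CPM with PBS and 2.16 CPM in that library, with a log2 fold change of -1.15 in the fit without rIL-17B replicate 1 (edgeR adjusted p 0.0254). LINC00461 had 11.6 and 16.8 CPM with PBS and 7.80 CPM there, with -0.86 (edgeR adjusted p 0.00102). These were the RNAs near or at 0 in rIL-17B replicate 1 that were also under both PBS libraries in replicate 2 by a margin the fit called. The highest in rIL-17B replicate 2 were LINC00476, LINC02019 and LINC00339. LINC00339 had 5.72 and 6.36 CPM with PBS against 8.83 and 8.66 CPM with rIL-17B, giving a log2 fold change of 0.46 (SE 0.22, edgeR adjusted p 0.661), or 0.52 without rIL-17B replicate 1 (edgeR adjusted p 0.241). LINC02019 had 2.26 and 1.16 against 1.16 and 2.51 CPM, so its groups overlapped.

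LINC00461 and LINC00472 host microRNAs on their own strand, whose mature sequences from RefSeq are shown with the seed, bases 2 to 8, in capitals. The microRNAs themselves were not measured by this oligo-dT method.
hsa-miR-9-5p in LINC00461: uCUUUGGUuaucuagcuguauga
hsa-miR-30a-5p in LINC00472: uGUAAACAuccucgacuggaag
hsa-miR-30c-5p in LINC00472: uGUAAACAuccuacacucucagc
miR-9-5p, best known from the nervous system, lies at chr5:88666902-88666924 on the minus strand. miR-30a-5p (chr6:71403595-71403616) and miR-30c-5p (chr6:71377003-71377025) share the seed GUAAACA. LINC00472 had 5.34 and 6.36 CPM with PBS, 11.2 CPM in rIL-17B replicate 1 and 5.58 CPM in replicate 2. The host of miR-9-2 and the host of the miR-30 pair thus lay on opposite sides of PBS in rIL-17B replicate 1. Of these 2 hosts, only LINC00461 was outside the PBS range in replicate 2. LINC01138 and LINC02486 also host a microRNA on their own strand. On the log2(CPM + 0.5) scale they differed from the PBS mean by only -0.13 and -0.07 in rIL-17B replicate 1, and by 0.25 and 0.09 in replicate 2. LINC00472 was chosen for its microRNAs after its values were seen.

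Among LINC RNAs written down by hand as sources of small proteins, 2 of 7 names had a count and 0 were called. The hand lists were searched by the names as written. A name without a count may therefore be a gene counted under a newer symbol, and its RNA is not shown to be absent. LINC00116, whose product mitoregulin is a protein of the mitochondrial inner membrane, had 8.30 and 9.16 CPM with PBS against 9.31 and 9.17 CPM with rIL-17B, with a log2 fold change of 0.01 (SE 0.20), or 0.07 without rIL-17B replicate 1. LINC00467 had 5.78 and 6.44 against 8.83 and 5.47 CPM. LINC00116 was close to the same level in each library, and LINC00467 was above PBS in rIL-17B replicate 1 alone.

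Of 15 LINC names often studied in carcinomas, 11 had a count, 7 were members, 9 entered the fit and 0 were called. The names without a count were not looked up under other symbols, so those RNAs are not shown to be absent. The median log2 fold change of the 9 was 0.19, against -0.03 over all genes. Of the 9, the groups did not overlap for 4 higher and 3 lower, beside 34.9% and 26.8% of all names. LINC00511 had 7.67 and 10.7 CPM with PBS against 2.05 and 6.44 CPM with rIL-17B, giving a log2 fold change of -1.15 (SE 0.70), or -0.50 without rIL-17B replicate 1 (edgeR adjusted p 0.245). LINC00662 had 13.5 and 12.2 against 6.16 and 12.9 CPM. LINC01234 had 2.89 and 3.03 against 4.86 and 3.02 CPM, and LINC01116 had 9.75 and 9.93 against 13.1 and 10.5 CPM. For LINC00662 and LINC01234 rIL-17B replicate 2 was within the PBS range. Of the 4 names beside or hosting a lineage gene, LINC00461 alone had a count under the name searched.

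For 36 other long noncoding RNAs with names of their own, 32 entered the fit, 0 were called and 2, FENDRR and SNHG16, had an unadjusted edgeR p under 0.05. Their median log2 fold change was -0.11. Of the 32, the groups did not overlap for 11 higher (34.4%, against 34.9% of all names) and 8 lower (25%, against 26.8%). MEG3, an imprinted long noncoding RNA, had 3180 and 2589 counts with PBS, 0 in rIL-17B replicate 1 and 2943 in replicate 2. Near absence from that library was therefore also seen in a far more abundant long noncoding RNA than any of the 12 members.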

How the data were processed

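RNA of 4 HGC-27 samples was sequenced after Smart-seq2 amplification. The authors deposited whole-number counts per gene name, without normalization. The submitters' processing notes name HISAT2 2.1.0, Bowtie2 2.2.3, TopHat2, HTSeq 0.6.0 and the build hg38, with no roles, while annotation and strand use are not given in the sources used here. Names missing from a library were given 0. Names listed more than once, 83 to 98 per library and always with equal counts, were used once. Entries turned into spreadsheet dates, 22 to 25 per library and 0.228% to 0.244% of counts, were left out.

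Libraries were grouped by their labels, 2 per group. edgeR 4.0.16 in R 4.3.3 was used with TMM normalization (factors 0.97 to 1.07) and filterByExpr. All 102 members passed that filter. The quasi-likelihood test was used with Benjamini-Hochberg adjustment at 0.05 over 16361 genes. It was also run on simulated counts, with 200 genes changed 4-fold and the spread of the PBS libraries alone. That spread leaves out rIL-17B replicate 1, so the run does not show the power of the test in these data. CPM was the count divided by the total, and 0.5 CPM was added before log2. Near absence was set at 3 counts, the floor. Counting intervals are 95% exact Poisson intervals. Alternatives were DESeq2 1.42.0, other normalizations, filters and limits, a replicate block and leaving out each library. Tables were joined in Python 3.11.15.

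RNAs were named as the 10 with most counts, the 5 with the smallest p in each direction, the 5 highest and lowest in rIL-17B replicate 1, the 3 highest and lowest in replicate 2, those of 3 hand lists, and those at the limit of 100 counts. Others, among them the remaining near-absent RNAs, those 2-fold over PBS, the highest and lowest per kb, and the named neighbours, were added after their values were seen. The members and lists were chosen with earlier results of these data known.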

Additional observations from a re-analysis of the deposited data

How the results depend on the processing

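The limit of at least 50 counts gave 161 members and that of 200 gave 71. Outside leaving out a library, each setting called 0 members, and called members ranged from 0 to 53 when a library was left out, with 53 without rIL-17B replicate 2 and 3 without rIL-17B replicate 1. The median log2 fold change of the members moved from -0.08 to -0.015 with library totals alone, to -0.0068 with at least 10 counts in every library, to -0.054 among members with at least 200 counts, and to between -0.16 and -0.012 when a library was left out. Members lower without overlap were 26 of 102, with 43 of 161 at 50 counts and 16 of 71 at 200 counts. They were 34 to 45 of 102 when a library was left out, where non-overlap is easier to meet because fewer values are compared. Members 2-fold over PBS in rIL-17B replicate 1 were 7 of 102, but 2 with TMM-scaled sizes, 0 at 4-fold and 4 of 71 at 200 counts. Members 2-fold under PBS there were 19 of 102, with 35 of 161 at 50 counts and 10 of 71 at 200 counts. Shares over all names at these 2 limits were not computed. Near-absent members numbered 8 at 0 counts and 13 at or under 10 counts, limits chosen after seeing the data.

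The labels do not say whether same-numbered libraries were paired. Their deviations from the group means correlated by 0.08. With 2 libraries a group and rIL-17B replicate 1 standing apart, this value cannot decide whether they were. With the replicate block 0 members were called, 0 had an unadjusted p under 0.05, and the median was -0.065.

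Of 275 single fold changes refitted outside leaving out a library, 274 kept their direction and side of the threshold, and LINC00116 turned from 0.013 to -0.026 with at least 10 counts in every library. When a library was left out 6 RNAs turned direction. LINC01278 ranged from -0.24 to 0.11, LINC01578 from -0.030 to 0.11, LINC01270 from -0.067 to 1.17, LINC02019 from -0.72 to 0.62, LINC00116 from -0.048 to 0.075 and LINC00467 from -0.16 to 0.40. The named RNAs were partly chosen by their values in these same libraries, so fits without a library give no separate support for them. The causes of the changes in direction were not tested. Depth limits what is shown for members near 3 counts.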
